A study of Mus musculus with 11 samples.

Results

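The haem biosynthesis enzymes were followed here across sorted mouse bone marrow cells. The members are 8 genes, Alas1, Alas2, Alad, Uros, Urod, Cpox, Ppox and Fech, taken by name in the order in which their enzymes act, with every array probe annotated to them. They had 17 probes of the 45281 on the array, and the 8 genes stand among 19057 genes with a named probe. All 8 members passed the filter on dim probes, among 11381 genes tested. The pathway step between Alad and Uros was not analysed here.

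Haem is an iron porphyrin that carries oxygen in haemoglobin and electrons in cytochromes. Its synthesis starts and ends inside the mitochondrion, with steps in the cytosol between. Aminolevulinic acid synthase joins glycine to succinyl-CoA, and this step sets the rate of the pathway. It has a pair of forms from separate genes: Alas1, found in most cells and held down by haem, and Alas2, the form of red cell precursors, whose translation depends on iron. Red cell precursors in the marrow are the main haem makers of the body.

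The cells came from C57BL/6 mice and were sorted by flow cytometry from the marrow next to the inner bone surface. Groups follow the sample titles: FITC-AGE+ CD31- B220- (3 arrays), FITC-AGE+ CD31+ B220- (3 arrays), FITC-AGE+ CD31+ B220+ (3 arrays), and haemopoietic stem cells gated as LSK CD150+ CD48- (HSC, 2 arrays). FITC-AGE+ cells are positive for a fluorescein-tagged agent labelled AGE, and in the labels the 3 fractions are scavenger endothelial cells (SEC). The source name of each CD31- B220- sample opens with HSC although its title does not, and the title was used. No treatment, genotype or age was used from the labels. LSK cells lack mature lineage markers and carry Sca-1 and Kit, so the gate itself removes cells with such lineage markers from HSC. Some RNA was pooled before labelling and nothing says that numbered samples come from separate animals, so the p-values measure the spread between these samples only, which may be technical.

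Before normalization the 75th percentile of probe intensity was 145.9 to 211.6 on the 9 arrays of the fractions and 376.8 to 450.5 on the 2 HSC arrays. Each array of the fractions detected 15063 to 17418 probes and each HSC array 17557 to 17755, at a detection p under 0.05. With 2 or 3 arrays a group, their number sets the precision. CD31- B220- replicate 3 had a mean Pearson r across genes of 0.914 with the CD31+ B220- arrays, against 0.887 for each of the other arrays of its group. Endothelial markers were not detected alike in the fractions. Of 10 endothelial markers, 2 to 4 were detected on CD31- B220- arrays, 8 to 9 on CD31+ B220- arrays, 3 to 4 on CD31+ B220+ arrays and 8 on HSC arrays. Cdh5, the cadherin of endothelial junctions, and Stab2, a scavenger receptor of sinusoidal endothelium, were detected on 0 of 3 CD31- B220- arrays and on 3 of 3 CD31+ B220- arrays. Other markers of the list did not follow them. Eng averaged 8.43 in CD31- B220-, 7.63 in CD31+ B220- and 4.67 in CD31+ B220+ cells. Stab1 averaged 10.61 in CD31- B220- and 9.17 in CD31+ B220+ cells. The sum over the 10 markers was 2144 to 2179 on CD31- B220- arrays and 2254 to 3041 on CD31+ B220- arrays. It was 1635 to 1933 on CD31+ B220+ arrays and 7189 to 7694 on HSC arrays.

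The windows just before the start sites are shown first because the red cell factors Gata1 and Klf1, which bind GATA and CACC motifs, were measured on the same arrays. Each line gives the 250 bases before a RefSeq transcript start (GRCm38.p6), 5′ to 3′ on the gene's strand, with GATA motifs in capitals. The words searched, on both strands, were AGATAA and AGATAG, with TGATAA as well as TGATAG beside them. Alas2 is shown as the red cell form of the first enzyme, Cpox and Uros because their windows hold a pair of GATA motifs, and Alas1 as the widely used form.
Alas2 (chrX:150547167-150547416, plus strand): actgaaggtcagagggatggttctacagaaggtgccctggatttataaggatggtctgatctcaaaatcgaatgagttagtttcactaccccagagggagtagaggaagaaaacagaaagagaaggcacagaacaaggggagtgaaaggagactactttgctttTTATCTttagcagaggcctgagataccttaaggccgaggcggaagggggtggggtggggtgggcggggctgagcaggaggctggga
Cpox (chr16:58669958-58670207, plus strand): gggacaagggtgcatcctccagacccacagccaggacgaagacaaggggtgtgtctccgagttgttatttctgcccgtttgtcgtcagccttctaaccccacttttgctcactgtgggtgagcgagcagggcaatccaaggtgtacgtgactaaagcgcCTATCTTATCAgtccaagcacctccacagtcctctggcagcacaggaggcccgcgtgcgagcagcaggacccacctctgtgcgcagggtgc
Uros (chr7:133702501-133702750, minus strand): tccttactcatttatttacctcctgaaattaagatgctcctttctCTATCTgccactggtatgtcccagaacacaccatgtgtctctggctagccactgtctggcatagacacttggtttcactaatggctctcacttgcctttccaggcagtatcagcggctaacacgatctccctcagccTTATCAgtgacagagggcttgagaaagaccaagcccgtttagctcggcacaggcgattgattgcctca
Alas1 (chr9:106247955-106248204, minus strand): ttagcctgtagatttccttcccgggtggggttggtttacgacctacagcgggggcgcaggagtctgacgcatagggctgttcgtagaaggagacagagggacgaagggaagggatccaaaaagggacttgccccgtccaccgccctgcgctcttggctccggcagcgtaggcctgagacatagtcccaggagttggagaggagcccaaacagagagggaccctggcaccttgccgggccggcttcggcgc

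Alas2 had 1 GATA motif, 86 bases before the start, and 4 matches to CCNCNCCC on either strand, some of which overlap each other. In Cpox the 2 motifs lay 91 and 86 bases before the start and shared a base. In this Uros window, the second of 2 in the table, the motifs lay 205 and 68 bases before the start, and its other window held none. Neither Alas1 window held a GATA motif, nor did those of Alad, Urod and Ppox. Matches to CCNCNCCC, the CACC word searched, were not particular to Alas2. The Alas1 windows held 1 and 2, the Alad windows 2 and 4, and the other Uros window 1. The printed Uros window and those of Cpox, Urod and Ppox held no CACC match. Of 32851 such windows, 26.5% held a GATA motif, 45.9% a CACC motif and 8.19% both. A match is a description of the letters, not of binding. The table gave 10 windows for 7 members and none for Fech.

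Values below are log2 signals after background correction and quantile normalization, and errors are SDs over arrays. Differences are log2 differences of group means with their standard errors, tested with limma over all 11381 genes with Benjamini-Hochberg adjustment, and a gene is called where the adjusted p is under 0.05. CD31- B220- cells gave more signal than each other group for 7 of the 8 enzymes, and the exception was Alas1. Cpox is among the 7 but passed the filter on dim probes only through the CD31- B220- arrays, so it could hardly have gone another way, and 6 of the other 7 members were higher. Against CD31+ B220- cells 7 members were higher and 1 lower in CD31- B220- cells, where 12.1% of all tested genes were higher and 16% lower. Against CD31+ B220+ cells 7 were higher and 0 lower, where 22.5% of all genes were higher and 22.4% lower. Against HSC 7 were higher and 0 lower, where 20.9% of all genes were higher and 28.3% lower. The members' median difference was 2.80 against CD31+ B220- cells, 3.00 against CD31+ B220+ cells and 2.53 against HSC, and the median over all genes lay between -0.07 and -0.02 in these comparisons. The comparisons share the CD31- B220- arrays, so they are not separate evidence. In bulk samples such as these, fewer cells of a type and less RNA per cell cannot be told apart.

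**Figure D1:**
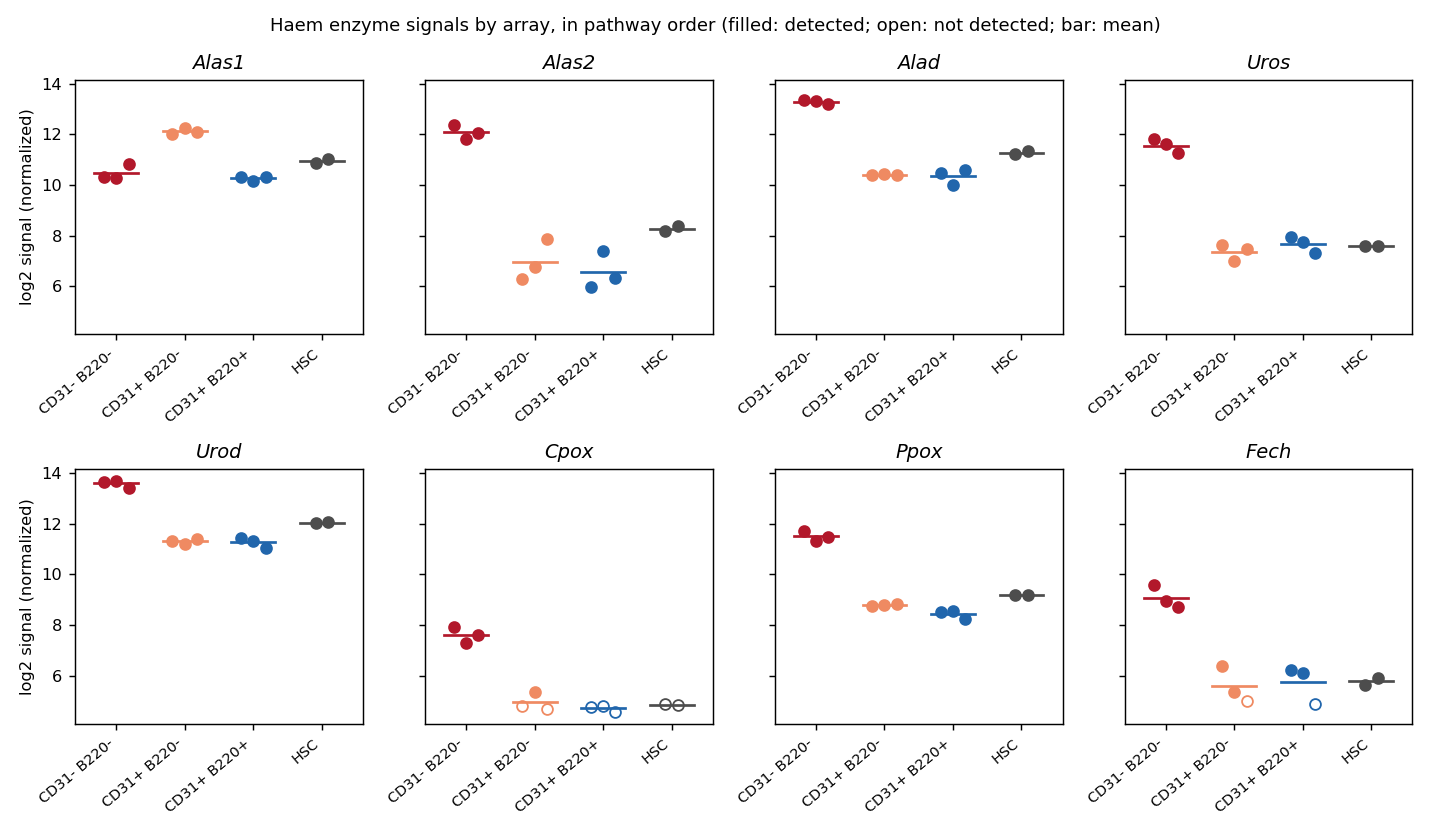
Normalized log2 signal of each haem enzyme (chosen probe) on each of the 11 arrays, by group; filled points were detected at p under 0.05, open points were not, and bars are group means. For Alas1 the CD31+ B220- points (12.003 to 12.25) are the highest, and in the other panels the CD31- B220- points are. Of these, Cpox passed the filter on dim probes only through the CD31- B220- arrays.

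Alas2 (chrX:150547417-150570622, GRCm38.p6) gave the widest differences of the members between CD31- B220- cells and the CD31+ fractions. Its log2 signal was 12.35, 11.83 and 12.07 on the CD31- B220- arrays, 6.27, 6.76 and 7.87 on the CD31+ B220- arrays, 5.95, 7.39 and 6.34 on the CD31+ B220+ arrays, and 8.16 and 8.37 on the HSC arrays. The CD31- B220- arrays stood far above the rest, HSC came next, and both CD31+ fractions lay below HSC without overlapping it. Alas2 was higher in CD31- B220- cells by 5.12 ± 0.42 (SE) than in CD31+ B220- cells, 34.8-fold (adjusted p = 3.865e-06). The difference from CD31+ B220+ cells was 5.53 ± 0.42, 46.1-fold (adjusted p = 7.47e-07), and from HSC 3.82 ± 0.47, 14.1-fold (adjusted p = 4.38e-05). Relative to HSC, Alas2 was lower by 1.71 in CD31+ B220+ cells (log2 difference -1.71 ± 0.47, adjusted p = 0.0112), which failed the test without HSC replicate 1 (0.0513) and without HSC replicate 2 (0.0776). In CD31+ B220- cells the difference from HSC was -1.30 ± 0.47 (adjusted p = 0.0432), a call that was lost in 10 of 21 alternative settings. The CD31+ fractions spread widely for this gene, with SDs of 0.82 and 0.75, and did not differ from each other beyond that spread (0.41 ± 0.42, adjusted p = 0.504).

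Erythroid markers ran alongside Alas2. Of 17 erythroid markers with a probe, 16 were detected on each CD31- B220- array, 11 to 12 on CD31+ B220- arrays, 7 to 8 on CD31+ B220+ arrays and 14 on HSC arrays. Their summed linear signal was 92721 to 110676 in the CD31- B220- fraction, 9101 to 18174 in the CD31+ B220- fraction, 10281 to 17900 in the CD31+ B220+ fraction and 21053 to 25133 in HSC. Within the CD31+ fractions the array with the most Alas2 was also the one with the largest erythroid sum: 18174 on CD31+ B220- replicate 3 and 17900 on CD31+ B220+ replicate 2. In HSC it was the reverse: replicate 2 had more Alas2 (8.37 beside 8.16) and the smaller sum (21053 beside 25133). By the mean log2 of the same markers, CD31+ B220+ replicate 3 (6.51) stood above replicate 2 (6.46). In CD31- B220- cells all 16 tested erythroid markers were called higher than in both CD31+ fractions, and 15 of 16 than in HSC. Of all genes, 12.1% were called higher than in CD31+ B220- cells, 22.5% than in CD31+ B220+ cells and 20.9% than in HSC. Stromal markers were high in the same cells, with a sum over 7 markers of 3758 to 6418 on CD31- B220- arrays, 251 to 665 on CD31+ B220- arrays, 189 to 384 on CD31+ B220+ arrays and 381 to 891 on HSC arrays. Of 5 tested, 4 were called higher in CD31- B220- cells against each CD31+ fraction and 2 against HSC, beside the same shares of all genes. The part of either list in the enzyme differences was not tested. Gata1 and Klf1 are described below with the other regulators.

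Alas1 (chr9:106233455-106247954), the housekeeping synthase, ran another way. It read 10.30, 10.26 and 10.84 on the CD31- B220- arrays, 12.003, 12.25 and 12.09 on the CD31+ B220- arrays, 10.33, 10.16 and 10.33 on the CD31+ B220+ arrays, and 10.86 and 11.03 on the HSC arrays. The CD31+ B220- arrays were the highest with no overlap, and the CD31- B220- and CD31+ B220+ arrays overlapped. Alas1 was lower in CD31- B220- cells than in CD31+ B220- cells by a log2 difference of -1.65 ± 0.19, 3.14-fold (adjusted p = 5.175e-05). It did not pass the test between CD31- B220- and CD31+ B220+ cells (0.19 ± 0.19, interval -0.22 to 0.60, adjusted p = 0.449). Between CD31- B220- cells and HSC the difference was -0.48 ± 0.21 (adjusted p = 0.0815), and without CD31- B220- replicate 3 it was -0.67 (adjusted p = 0.0116). It was also called with no background correction (-0.44, adjusted p = 0.0283) and with median scaling (-1.45, adjusted p = 0.000304), where all genes moved to a median of -1.04. CD31+ B220- cells exceeded CD31+ B220+ cells by 1.84 ± 0.19, 3.59-fold (adjusted p = 1.74e-05). They exceeded HSC by 1.17 ± 0.21, 2.26-fold (adjusted p = 0.000991), although median scaling left 0.29 (adjusted p = 0.392), where the median of all genes moved to -1.11. CD31+ B220+ cells were below HSC by a log2 difference of -0.67 ± 0.21 (adjusted p = 0.0227), which failed the test without HSC replicate 1 (0.0633), without HSC replicate 2 (0.135) and without CD31+ B220+ replicate 2 (0.0677).

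**Figure D2:**
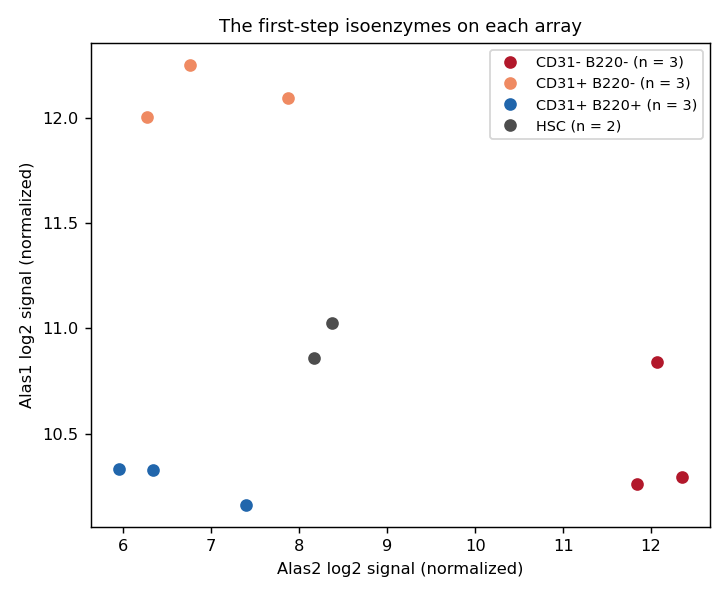
Alas1 log2 signal (vertical) against Alas2 log2 signal (horizontal) on each of the 11 arrays, both normalized; each point is 1 array, coloured by group. CD31- B220- arrays lie at the right (Alas2 11.83 to 12.35) and CD31+ B220- arrays at the top (Alas1 12.003 to 12.25), with CD31+ B220+ at the lower left and HSC between.

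Alad (chr4:62505984-62520063) encodes the cytosolic enzyme that joins a pair of aminolevulinic acid molecules into porphobilinogen. Its signal was 13.34, 13.34 and 13.19 on the CD31- B220- arrays, 10.40, 10.42 and 10.40 on the CD31+ B220- arrays, 10.47, 9.99 and 10.58 on the CD31+ B220+ arrays, and 11.22 and 11.33 on the HSC arrays. CD31- B220- cells were the highest, HSC second, and the CD31+ fractions overlapped each other below HSC. The excess in CD31- B220- cells was 2.88 ± 0.18 over CD31+ B220- cells (7.37-fold, adjusted p = 4.77e-07) and 2.01 ± 0.20 over HSC (4.04-fold, adjusted p = 8.23e-06). Relative to HSC, Alad fell in CD31+ B220- cells (-0.87 ± 0.20, adjusted p = 0.00473) and also in CD31+ B220+ cells (-0.93 ± 0.20, adjusted p = 0.00273).

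Uros (chr7:133686142-133710467), the synthase that closes the ring to uroporphyrinogen III, was high in CD31- B220- cells, and the other groups overlapped. The signals were 11.81, 11.60 and 11.27 on the CD31- B220- arrays, 7.61, 6.99 and 7.48 on the CD31+ B220- arrays, 7.93, 7.75 and 7.32 on the CD31+ B220+ arrays, and 7.57 and 7.58 on the HSC arrays. No test among the last 3 groups passed. Uros exceeded its level in CD31+ B220- cells by 4.19 ± 0.23 (18.3-fold, adjusted p = 1.93e-07), in CD31+ B220+ cells by 3.89 ± 0.23 (14.9-fold) and in HSC by 3.98 ± 0.25 (15.8-fold, adjusted p = 3.12e-07). Between CD31+ B220+ cells and HSC the difference was 0.09 (adjusted p = 0.801) here but -1.57 (adjusted p = 4.19e-05) under median scaling, where the median of all genes moved to -1.19. For CD31+ B220- cells minus HSC, -0.21 became -1.70 (adjusted p = 1.87e-05) there.

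Urod (chr4:116989965-116994436) makes coproporphyrinogen by removing carboxyl groups. It read 13.67, 13.70 and 13.40 on the CD31- B220- arrays, 11.33, 11.21 and 11.38 on the CD31+ B220- arrays, 11.42, 11.33 and 11.05 on the CD31+ B220+ arrays, and 12.04 and 12.05 on the HSC arrays. The order matched that of Alad, and the differences were smaller. CD31- B220- cells were higher by 2.28 ± 0.17 than CD31+ B220- cells (4.86-fold, adjusted p = 1.505e-06), by 2.32 ± 0.17 than CD31+ B220+ cells and by 1.54 ± 0.18 than HSC (2.91-fold, adjusted p = 3.75e-05). Relative to HSC, Urod was lower in CD31+ B220- cells (-0.74 ± 0.18, adjusted p = 0.00775), and likewise in CD31+ B220+ cells (-0.78 ± 0.18, adjusted p = 0.00513).

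Cpox (chr16:58670208-58680391), the oxidase that returns the pathway to the mitochondrion, was detected on all 3 CD31- B220- arrays and on 1 of the other 8. Its signal was 7.92, 7.27 and 7.60 on the CD31- B220- arrays, 4.80, 5.35 and 4.68 on the CD31+ B220- arrays, 4.74, 4.80 and 4.56 on the CD31+ B220+ arrays, and 4.89 and 4.82 on the HSC arrays. The CD31+ B220- values overlapped those of CD31+ B220+ cells and of HSC, which did not overlap each other. The dim groups carry no order, since most of their values were not above background. Cpox was at least 4.23-fold higher in CD31- B220- cells than in CD31+ B220+ cells (adjusted p = 7.81e-07) and at least 5.03-fold higher than in HSC (adjusted p = 3.97e-06). These bounds hold for the normalization used: over the alternatives the fitted log2 difference ranged from 1.19 to 4.53 against CD31+ B220+ cells and from 1.11 to 4.10 against HSC. Each bound sets the mean of CD31- B220- cells against, per dim array, the higher of the probe's own value and the lowest signal of a detected probe. Against CD31+ B220- cells, where 1 of 3 arrays detected it, the difference was 2.65 ± 0.22 (adjusted p = 4.32e-06), and it ranged from 1.09 to 3.95 over the alternatives.

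Ppox (chr1:171276991-171281193) oxidizes protoporphyrinogen at the mitochondrial inner membrane. Its chosen probe read 11.72, 11.33 and 11.46 on the CD31- B220- arrays, 8.73, 8.79 and 8.82 on the CD31+ B220- arrays, 8.52, 8.56 and 8.24 on the CD31+ B220+ arrays, and 9.20 and 9.17 on the HSC arrays. No groups overlapped, and CD31- B220- cells stood furthest apart. They were higher by 2.72 ± 0.16 than CD31+ B220- cells (6.58-fold, adjusted p = 4.12e-07), by 3.06 ± 0.16 than CD31+ B220+ cells (8.35-fold, adjusted p = 4.70e-08) and by 2.32 ± 0.18 than HSC (4.99-fold, adjusted p = 1.59e-06). The difference of CD31+ B220+ cells from HSC was -0.74 ± 0.18 (adjusted p = 0.00664), and that of CD31+ B220- cells from HSC did not pass (-0.40 ± 0.18, adjusted p = 0.106), although median scaling gave -1.83 (adjusted p = 7.97e-06). The second Ppox probe went the other way against HSC, as given below.

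Fech, on chromosome 18, encodes ferrochelatase, which places iron in the ring in the last step. Its chosen probe read 9.59, 8.93 and 8.71 on the CD31- B220- arrays, 6.39, 5.36 and 4.99 on the CD31+ B220- arrays, 6.21, 6.09 and 4.89 on the CD31+ B220+ arrays, and 5.63 and 5.92 on the HSC arrays. CD31- B220- cells were above all others, and the other groups overlapped, with 2 of 3 arrays of each CD31+ fraction and 2 of 2 HSC arrays detecting the probe. The excess in CD31- B220- cells was 3.50 ± 0.41 over CD31+ B220- cells (11.3-fold, adjusted p = 6.99e-05), 3.35 ± 0.41 over CD31+ B220+ cells (10.2-fold, adjusted p = 4.29e-05) and 3.30 ± 0.46 over HSC (9.88-fold, adjusted p = 0.0001205). Over the alternatives the difference from CD31+ B220- cells ranged from 1.93 to 4.35. Differences of the CD31+ fractions from HSC were -0.19 ± 0.46 for CD31+ B220- and -0.04 ± 0.46 for CD31+ B220+, and neither passed. Median scaling called both, at -1.02 (adjusted p = 0.01496) and -1.09 (adjusted p = 0.0101), close to the shift of all genes there.

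**Figure D3:**
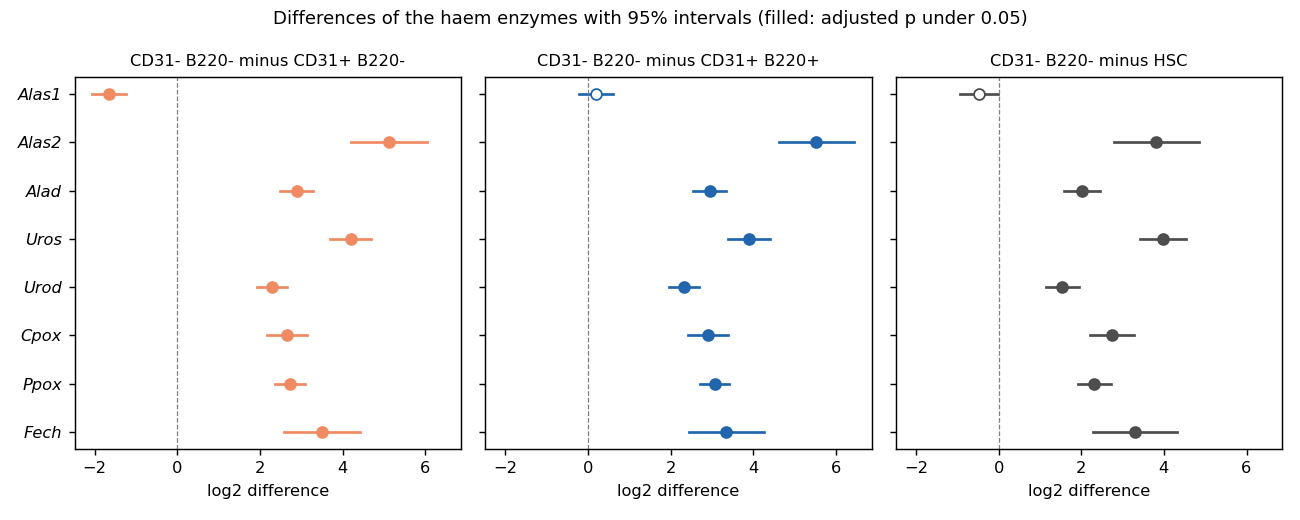
Log2 differences of the 8 enzymes, CD31- B220- minus each other group, with 95% intervals from the fit; filled points passed an adjusted p under 0.05. All enzymes but Alas1 lie to the right of 0 in each panel, and Alas1 lies left of 0 against CD31+ B220- (-1.65).

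The 2 CD31+ fractions differed in 1 member alone. Between CD31+ B220- and CD31+ B220+ cells only Alas1 passed, higher in CD31+ B220- cells (1 of 8 higher, 0 lower), where 18.5% of all genes were higher and 16.8% lower. The other 7 differences lay between -0.30 (Uros) and 0.41 (Alas2), and a p that misses the threshold does not show equal levels. Against HSC, CD31+ B220- cells had 1 member higher, Alas1, and 3 lower, Alas2, Alad and Urod, where 17.6% of all genes were higher and 23.7% lower. CD31+ B220+ cells had 0 higher and 5 lower, namely Alas1, Alas2, Alad, Urod and Ppox, where 18.6% of all genes were higher and 25.6% lower. The median member difference from HSC was -0.31 in CD31+ B220- cells and -0.70 in CD31+ B220+ cells, beside -0.06 and -0.03 over all genes. Both comparisons use the same 2 HSC arrays, and without either one of them 3 members, not 5, were called lower in CD31+ B220+ cells.

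Leaving out CD31- B220- replicate 3, the array nearest to the CD31+ B220- arrays, kept all 21 calls of higher members in CD31- B220- cells. The Cpox calls among them are no support, since Cpox passed the filter on dim probes only through the CD31- B220- arrays. Replicate 3 was the lowest of its group for Alad, Uros, Urod and Fech and the highest for Alas1. Without it the difference from CD31+ B220- cells was 5.13 for Alas2, 4.34 for Uros, 3.68 for Fech and -1.84 for Alas1. The same array had the most neutrophil marker signal of its group, with a sum over 9 markers of 57356 beside 22353 and 28102 on the other arrays. CD31+ B220- arrays summed to 56127 to 61986, CD31+ B220+ arrays to 1449 to 6645 and HSC arrays to 7210 to 7364. By the mean log2 of these markers CD31- B220- arrays read 10.44, 10.37 and 11.98, and CD31+ B220- arrays 10.50, 10.76 and 10.16. Between these fractions, 3 of the 9 markers were called higher and 3 lower in CD31- B220- cells, beside 12.1% and 16% of all genes. Mast cell and basophil markers were highest in the same fraction as Alas1: their sum over 6 markers was 346 to 752 on CD31- B220- arrays, 5126 to 7134 on CD31+ B220- arrays, 214 to 399 on CD31+ B220+ arrays and 411 to 428 on HSC arrays. All 5 tested members of that list were called higher in CD31+ B220- cells against each other group. Of all genes, 16% were higher there against CD31- B220- cells, 18.5% against CD31+ B220+ cells and 17.6% against HSC. The part of both marker lists in the Alas1 values was not tested.

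Every probe of the members was also fitted singly, over 22233 probes detected on at least 2 arrays. Of the 17 member probes 16 passed that filter. In CD31- B220- cells 13 of 16 were higher and 1 lower than in CD31+ B220- cells, beside 9.58% higher and 11.5% lower over all probes. Against CD31+ B220+ cells 13 were higher and 0 lower, beside 18.5% and 19.4%, and against HSC 13 were higher and 0 lower, beside 19% and 23.9%. Of these, 3 Cpox probes and 1 Fech probe passed the filter only through the CD31- B220- arrays and are no support, and of the other 12 probes 9 were higher in each of these comparisons. CD31+ B220- cells had 2 probes higher and 3 lower than HSC, beside 15.2% and 20.3%, and CD31+ B220+ cells 0 higher and 6 lower than HSC, beside 18.3% and 22.1%. Between CD31+ B220- and CD31+ B220+ cells 1 probe was higher and 0 lower, beside 14.2% and 15.1%. Alas1 has a single probe, as have Alas2, Alad and Urod, so no second probe checks them.

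The second Uros probe, ILMN_2498173, read 11.04, 10.61 and 10.08 on the CD31- B220- arrays, 6.56, 6.10 and 6.31 on the CD31+ B220- arrays, 6.65, 6.28 and 6.21 on the CD31+ B220+ arrays, and 6.00 and 6.04 on the HSC arrays. It repeats the gap between CD31- B220- cells and all other groups. The third, ILMN_2545953, was detected on 5 of 11 arrays and passed in no comparison. For Cpox, 3 of 4 probes were detected on all 3 CD31- B220- arrays, while ILMN_1226474, annotated to a separate cDNA record, was detected on none of the 11 arrays. For Fech, 3 of 4 probes passed the test as higher in CD31- B220- cells against each other group, and ILMN_1252066, also annotated to a separate cDNA record, passed in none. Among those 3 Fech probes ILMN_1229519, like the 3 Cpox probes, passed the filter only through the CD31- B220- arrays and is no support.

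The Ppox probes disagreed on the order below CD31- B220- cells. The second one, ILMN_2706938, read 8.97, 9.13 and 8.68 on the CD31- B220- arrays, 7.03, 5.90 and 6.82 on the CD31+ B220- arrays, 6.35, 6.18 and 6.37 on the CD31+ B220+ arrays, and 5.41 and 5.75 on the HSC arrays. HSC was the lowest group by this probe and the second highest by the chosen one. CD31+ B220- cells exceeded HSC by 1.00 with it (adjusted p = 0.0241), against -0.40 with the chosen probe. In CD31+ B220+ cells the difference from HSC was 0.72 (adjusted p = 0.0825), against -0.74 with the chosen probe. The direction of Ppox between the CD31+ fractions and HSC therefore depends on the probe, and its excess in CD31- B220- cells does not.

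**Figure D4:**
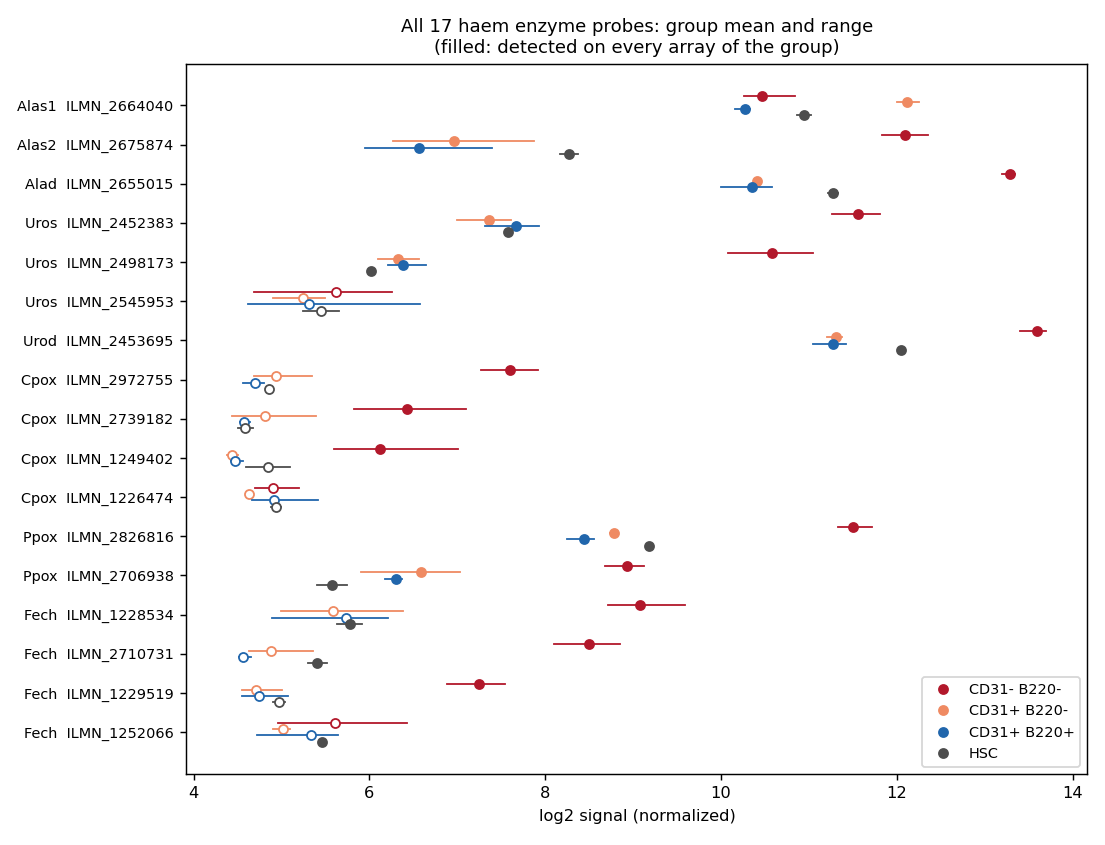
Group mean (point) and range over arrays (line) of the normalized log2 signal for each of the 17 haem enzyme probes; filled points were detected on every array of the group. The 2 Ppox probes place HSC on opposite sides of the CD31+ fractions. Of the probes with CD31- B220- furthest right, 4, of Cpox and Fech, passed the filter on dim probes only through those arrays.

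Likeness between members was measured as the root mean square difference of the 4 group means after centring each gene, in log2 units, where smaller is more alike. Cpox and Fech are left out of it, since arrays outside CD31- B220- cells did not all detect them. Alad and Ppox were the closest pair (0.17), followed by Alad and Urod (0.25). Distances of Ppox use its chosen probe. Its second probe placed HSC below the CD31+ fractions, so they hold for the chosen probe only. Alas1 and Alas2 were the farthest (2.53), and Alas1 lay at 1.39 from Urod, 1.58 from Ppox and 1.62 from Alad. These values describe 4 group means and carry no test.

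By the same measure the 5 genes closest to Alas2 among 11380 other tested genes were Fhdc1, Slc6a9, Slc4a1, Tspan8 and Fn3k, at 0.07 to 0.22, beside a median over all genes of 2.25. Of these Slc4a1, the anion exchanger of the red cell membrane, stood well above background in every group, with means of 14.60 in the CD31- B220- fraction, 9.48 in the CD31+ B220- fraction, 9.28 in the CD31+ B220+ fraction and 10.48 in HSC. The means of the other 4 in the CD31+ fractions lay between 5.03 and 5.83, near the lowest detected signals of 5.26 to 5.64, so their distances rest partly on background. Of the 5 closest to Alas1, namely Stab2, Lair1, Wfs1, Pgam1 and Epx, only Pgam1, phosphoglycerate mutase of glycolysis, stood well above that level in every group (0.13, beside a median of 0.87). Pgam1 averaged 7.91 in the CD31- B220- fraction, 9.30 in the CD31+ B220- fraction, 7.37 in the CD31+ B220+ fraction and 8.15 in HSC. The 5 closest to Fech were Tnc, Tac2, Kng1, Gfap and Ache, whose means outside CD31- B220- cells were 5.01 or less. That is below the lowest detected signal of any array, so their distances are set by the background and are not given.

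The genes that supply the pathway were counted over 22 support genes, of which 18 had a probe and 17 were tested. They include carriers of glycine and iron into the mitochondrion, porphyrin transporters and makers of iron-sulphur clusters. In CD31- B220- cells 9 were higher and 0 lower than in CD31+ B220- cells, 12 higher and 1 lower than in CD31+ B220+ cells, and 11 higher and 3 lower than in HSC, with median differences of 1.09, 1.85 and 0.92. Of all genes, 12.1%, 22.5% and 20.9% were higher in these comparisons. Abcb10, a mitochondrial transporter needed for haem synthesis in red cells, was 17.4-fold higher in CD31- B220- than in CD31+ B220- cells (adjusted p = 3.19e-07) and at least 16.1-fold higher than in HSC (adjusted p = 1.73e-07). Its CD31+ B220- mean of 5.16 lay below the lowest detected signals of those arrays (5.30 to 5.46), so the 17.4-fold rests partly on background. Slc25a37, mitoferrin, which brings iron into the mitochondrion of red cell precursors, was 11.1-fold higher than in CD31+ B220- cells (adjusted p = 6.455e-07). Abcb6, a porphyrin transporter, was 10.3-fold higher than in CD31+ B220- cells (adjusted p = 4.94e-06) and 18.6-fold higher than in HSC. Glrx5, which acts in iron-sulphur cluster assembly, was 6.89-fold higher than in HSC (adjusted p = 1.59e-06).

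Between the CD31+ fractions, 3 of the 17 support genes were higher and 1 lower in CD31+ B220- than in CD31+ B220+ cells, a share no larger than the 18.5% and 16.8% of all genes. Tspo, a protein of the outer mitochondrial membrane, was 3.36-fold higher (adjusted p = 5.94e-05), and Slc25a37 was 2.59-fold lower (adjusted p = 0.000594). Against HSC, CD31+ B220- cells had 3 of 17 higher and 5 lower, beside 17.6% and 23.7% of all genes. CD31+ B220+ cells had 2 higher and 6 lower than HSC, beside 18.6% and 25.6%. These counts lie near the background.

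Regulators of haem genes numbered 11, of which 10 had a probe and were tested. In CD31- B220- cells 5 were higher and 0 lower than in CD31+ B220- cells, 7 higher and 0 lower than in CD31+ B220+ cells, and 4 higher and 0 lower than in HSC. The shares of all genes called higher were 12.1%, 22.5% and 20.9% in these 3 comparisons. Klf1, a zinc finger factor of red cell genes, had a mean of 12.23 in the CD31- B220- fraction, 6.26 in the CD31+ B220- fraction, 5.35 in the CD31+ B220+ fraction and 7.61 in HSC. It was 63.0-fold higher in CD31- B220- than in CD31+ B220- cells (adjusted p = 1.29e-07) and 24.7-fold higher than in HSC (adjusted p = 8.78e-07). Gata1, which binds the GATA motif, was detected on 3 of 3 CD31- B220- arrays, on 0 of 6 CD31+ arrays and on 2 of 2 HSC arrays. Its level in CD31- B220- cells was at least 11.3-fold above CD31+ B220- cells (adjusted p = 2.46e-07) and 9.61-fold above HSC (adjusted p = 1.40e-06). Eif2ak1, the kinase that slows translation when haem is short, was 2.45-fold higher in CD31- B220- than in CD31+ B220- cells (adjusted p = 0.000299) and 3.85-fold higher than in HSC.

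Genes of haem breakdown, export and binding did not all move with the enzymes. Of 12 such genes 9 were tested, and in CD31- B220- cells 4 were higher and 2 lower than in CD31+ B220- cells, 7 higher and 0 lower than in CD31+ B220+ cells, and 5 higher and 2 lower than in HSC, beside 12.1%, 22.5% and 20.9% of all genes higher. Hebp1, a haem-binding protein, was 34.8-fold higher in CD31- B220- than in CD31+ B220- cells (adjusted p = 5.74e-08) and 18.3-fold higher than in HSC. Blvrb, a biliverdin reductase, was 10.5-fold higher than in CD31+ B220- cells (adjusted p = 1.47e-07). Cd163, the macrophage receptor for haptoglobin-bound haemoglobin, was at least 2.67-fold lower in CD31- B220- than in CD31+ B220- cells (adjusted p = 2.815e-05). Hmox1, the haem oxygenase induced by haem, averaged 7.88 in the CD31- B220- fraction, 7.96 in the CD31+ B220- fraction, 4.80 in the CD31+ B220+ fraction and 6.10 in HSC. It was at least 5.14-fold higher in CD31- B220- (adjusted p = 1.03e-05) and at least 5.45-fold higher in CD31+ B220- (adjusted p = 1.65e-05) than in CD31+ B220+ cells, where no array detected it. Macrophage markers were also high in both fractions with the most Hmox1, while Cd163 was not detected on any CD31- B220- array. The sum over 10 macrophage markers was 2500 to 3153 in the CD31- B220- fraction, 3535 to 4905 in the CD31+ B220- fraction, 396 to 464 in the CD31+ B220+ fraction and 418 to 516 in HSC. Their part in the Hmox1 values was not tested.

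Among haem proteins and other haem users, the counts against CD31+ B220- cells lay near those of all genes. Of 18 genes 16 were tested, and in CD31- B220- cells 1 was higher and 4 lower than in CD31+ B220- cells, beside 12.1% and 16% of all genes, with a median difference of -0.01 beside -0.07 over all genes. Cyb5a, cytochrome b5, was 2.67-fold higher in CD31- B220- cells (adjusted p = 0.000254). Mpo, the myeloperoxidase of neutrophil granules, was 5.43-fold lower in CD31- B220- than in CD31+ B220- cells (adjusted p = 0.0152), and Epx was at least 3.07-fold lower (adjusted p = 0.0037). Against CD31+ B220+ cells, 7 users were higher and 3 lower in CD31- B220- cells, beside 22.5% and 22.4% of all genes. The CD31+ B220- fraction, where Alas1 was highest, had Mpo 19.4-fold higher than in CD31+ B220+ cells (adjusted p = 0.000354) and 6.63-fold higher than in HSC (adjusted p = 0.0106).

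**Figure D5:**
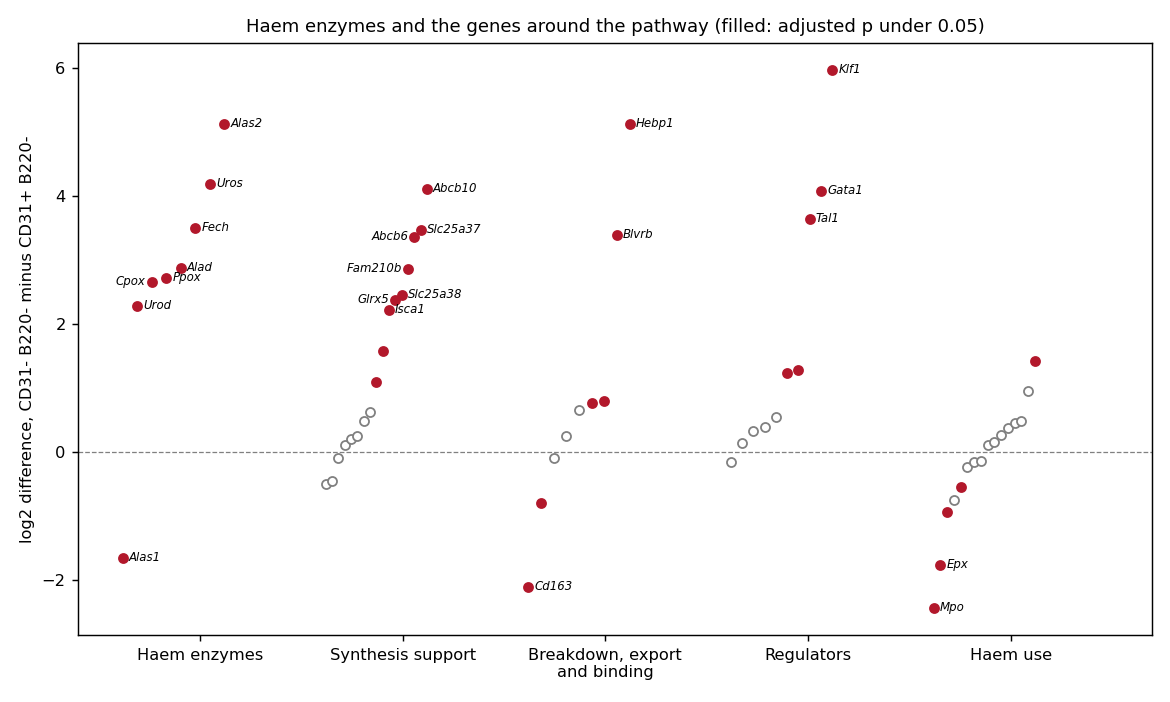
Log2 difference, CD31- B220- minus CD31+ B220-, of each tested gene in the 8 haem enzymes and in the 4 lists of genes around the pathway; filled points passed an adjusted p under 0.05. Most haem enzymes lie above 2, with Alas1 at -1.65, while haem users lie around 0 with Mpo lowest at -2.44.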

How the data were processed

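Gene expression was measured on 11 Illumina MouseWG-6 v2 arrays. The deposited non-normalized table gives each probe's mean intensity, linear and without background subtraction, and beside it a deposited fraction under a detection p heading. Since that fraction rises with signal (Spearman at least 0.987), 1 minus it served as the detection p. The deposited processed values fit a log2 scale, though no source used here states their base, and they served as an alternative. The submitters' processing notes name lumi 1.1.0, with no role.

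Intensities went through limma's neqc (normexp background from detection p, quantile normalization, log2, offset 16; limma 3.58.1, R 4.3.3). Of 45281 probes, 34885 have 1 gene symbol and 10396 do not, 18 of which have several. Each gene was read at its brightest probe over 11 arrays and tested if that probe was detected (p under 0.05) on at least 2. A limma model with 1 mean per group over all 11 arrays gave 6 comparisons, 2-sided, with Benjamini-Hochberg adjustment over 11381 genes. The code was tested on simulated data. Promoter windows are RefSeq's, build GRCm38.p6.

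All 8 members are named. Around them stand the up to 4 called genes per list and comparison with the largest differences, and the nearest genes by group means. Genes singled out after their values were seen were Hmox1 in each group, Stab2, Cdh5, Eng and Stab1, and Slc4a1 and Pgam1 among the nearest. The members and lists were chosen with earlier results of these data known. Same-number arrays shared little variation beyond their groups (15 correlations, -0.07 to 0.18, 1 of them above 0.1), so the main model held no pairing. Alternatives covered background, normalization, offset, filter, probes, deposited values, arrays in the fit, the replicate block and leaving out each array.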

Additional observations from a re-analysis of the deposited data

How the results depend on the processing

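Each value was recomputed under 21 alternatives. Not all of them can move a difference. Leaving out an array of an uncompared group, changing the filter, fitting all probes or fitting the compared groups alone alters only its adjusted p. The counts that follow include these recomputations, so they overstate how far the differences themselves were tried. Of 1008 single-gene differences, 969 kept direction and side of the threshold, 16 lost and 7 gained a call, and 16 changed sign, all of them not called here. Member calls were kept in 147 of 147 recomputations for CD31- B220- minus HSC, 168 of 168 for CD31- B220- minus CD31+ B220-, 147 of 147 for CD31- B220- minus CD31+ B220+, 73 of 84 for CD31+ B220- minus HSC, 100 of 105 for CD31+ B220+ minus HSC and 21 of 21 for CD31+ B220- minus CD31+ B220+. The counts for CD31- B220- cells include Cpox, which passed the filter on dim probes only through those arrays and could hardly have gone another way. The cause was not tested for the changes that follow, unless stated. With the replicate block Fech became 0.11 for CD31+ B220- minus HSC and 0.26 for CD31+ B220+ minus HSC. Median scaling gave Uros -1.57 for CD31+ B220+ minus HSC and Fech 0.065 for CD31+ B220- minus CD31+ B220+, and an offset of 50 gave Fech 0.0014 for CD31+ B220+ minus HSC. Leaving out 1 array, the difference CD31+ B220- minus HSC ran from -0.11 (without CD31+ B220- replicate 2) to 0.22 for Cpox, and from -0.60 to 0.10 (without CD31+ B220- replicate 3) for Fech. For CD31+ B220+ minus HSC it ran from -0.04 (without CD31+ B220+ replicate 1) to 0.26 for Uros, and from -0.28 to 0.38 for Fech, which was 0.38 without CD31+ B220+ replicate 3 and 0.10 without HSC replicate 2. For CD31+ B220- minus CD31+ B220+ it ran from -0.047 (without CD31+ B220- replicate 3) to 0.82 for Alas2, from -0.12 (without CD31+ B220+ replicate 2) to 0.18 for Alad, from -0.069 (without CD31+ B220+ replicate 3) to 0.12 for Urod and from -0.57 to 0.14 for Fech. That Fech difference was above 0 without CD31+ B220- replicate 3 (0.14), CD31+ B220+ replicate 1 (0.088) or CD31+ B220+ replicate 2 (0.031).

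Under median scaling the all-gene median stood at -1.04, -1.11 and -1.19 for CD31- B220-, CD31+ B220- and CD31+ B220+ minus HSC. It called 8236 genes for CD31+ B220- minus HSC, 920 of them higher (4704 and 2007 under quantile normalization), 8379 for CD31+ B220+ minus HSC, 796 higher (5029 and 2117), and 8054 for CD31- B220- minus HSC, 1108 higher (5595 and 2375). It called 8, 6 and 7 members against HSC, and relative to the shift Alas1 in CD31+ B220- cells was at 1.40. With all 22233 probes fitted singly, more features were tested and called: 9533 for CD31- B220- minus HSC, 7893 for CD31+ B220- minus HSC, 8978 for CD31+ B220+ minus HSC, 8412 for CD31- B220- minus CD31+ B220+ and 6515 for CD31+ B220- minus CD31+ B220+. Leaving out 1 array, 3104 (without HSC replicate 1) to 4867 genes were called for CD31+ B220- minus HSC, and 3 (without either HSC array) to 5 members for CD31+ B220+ minus HSC. With the replicate block 7, 4, 5, 8, 7 and 1 members were called in the 6 comparisons, as without it, and 5342 genes were called for CD31- B220- minus HSC. These counts cannot tell whether samples of the same replicate number belong together. Slides are not given in the sources used here, so the slide block was not run.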
